A study of Mus musculus with 88 samples.

Results

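Nuclear RNA of hippocampal neurons was compared between mice killed 30 minutes after contextual fear conditioning (CFC) and mice that had not been conditioned. These are 8 of the 88 samples of the series: the 4 libraries of NeuN+ nuclei labelled hippocampus (HIP) and CFC 30 minutes, here called CFC30, and the 4 labelled hippocampus and naive. They were chosen by their labels for region, sorted fraction and condition, with no measured value. All animals were wild-type male C57BL/6J mice of 4 months. In CFC a mouse was placed in a new chamber, given a pair of foot shocks after a period of habituation and returned to its home cage, and the time was counted from placement in the chamber. Naive mice stayed in the home cage, so that the new context, the handling and the shocks cannot be told apart. Nuclei were fixed, stained for NeuN, a splicing factor found in most mature neurons, and sorted by flow cytometry. The sort pooled all hippocampal subfields and both excitatory and inhibitory neurons. A further 4 libraries of the same NeuN+ nuclei taken 10 minutes after CFC (CFC10), the hippocampal NeuN- nuclei and the NeuN+ nuclei of the medial prefrontal cortex (mPFC), each from naive and CFC30 animals, served as comparisons. How many animals went into an RNA library is not given in the sources used here, so that p-values measure the spread between libraries.

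When a neuron fires, calcium entry and kinase signalling act on transcription factors already present in the nucleus, and genes such as *Fos*, *Egr1* and *Npas4* are transcribed within minutes without new protein synthesis. Their products are transcription factors that act on a later set of genes, which encode proteins of the synapse, growth factors and enzymes, and inhibitors that switch the signalling pathways off again. The hippocampus is needed to form the memory of a context, and this rapid transcription is part of how such a memory becomes lasting. Total RNA of nuclei counted over whole gene bodies, introns included, follows unspliced transcripts more closely than RNA of whole cells does.

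Among genes with a mean of at least 50 counts in the higher group, the largest rise was in *1700016P03Rik*, a transcript on the plus strand of chromosome 11 (chr11:75172560-75177633, GRCm38) whose gene body holds both hairpins of the activity-regulated microRNAs miR-212 and miR-132. Its level was 4.55, 2.63, 3.23 and 2.58 CPM (counts scaled to library size) in naive libraries 1 to 4 and 12.5, 13.1, 15.2 and 12.8 CPM in CFC30 libraries 1 to 4. All CFC30 libraries were far above all naive ones, with a log2 fold change of 2.07 ± 0.14 (SE) and an adjusted p of 1.33e-08 by edgeR's quasi-likelihood test, the test behind every adjusted p given here. The mature sequences that lie in this transcript are shown because both 3p arms carry 1 seed, AACAGUC, the bases by which a microRNA finds its targets. They are RefSeq sequences of GRCm38.p6, plus strand, written 5′ to 3′ with the seed, bases 2 to 8, in capitals.
mmu-miR-212-5p: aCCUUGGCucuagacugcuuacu
mmu-miR-212-3p: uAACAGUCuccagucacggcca
mmu-miR-132-5p: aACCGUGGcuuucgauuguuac
mmu-miR-132-3p: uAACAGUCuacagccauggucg
They lie at chr11:75173403-75173425, chr11:75173443-75173464, chr11:75173686-75173707 and chr11:75173723-75173744, in that order. Mature microRNAs were not measured, so the values are those of the host transcript. One neighbour, *Ovca2*, lies on the opposite strand over 33.3% of it and had a log2 fold change of 0.05 with an adjusted p of 0.908.

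The libraries held 11836005 to 16163576 counts in genes in naive and 12019994 to 14661631 in CFC30. On the first principal component of the 12 hippocampal NeuN+ libraries, which carried 29.9% of the variance, naive libraries lay between 6.91 and 11.47 and CFC30 libraries between -9.29 and 0.65. Summed pan-neuronal markers stood at 6004.6 to 6290.5 CPM in naive and 6029.1 to 6386.9 CPM in CFC30, against 906.5 to 1098.3 CPM in naive NeuN- nuclei. *Rbfox3*, which encodes NeuN, had a log2 fold change of 0.01 with an adjusted p of 0.917. Astrocyte markers summed to 523.3 to 623.3 CPM in naive and 474 to 665 CPM in CFC30, oligodendrocyte markers to 103.9 to 132.9 and 111 to 147.5 CPM, and microglial markers to 13.5 to 19.7 and 13.1 to 17.3 CPM. The ranges of these lists overlapped between the groups. Excitatory neuron markers summed to 1748.8 to 1872.2 CPM in naive and 1860.8 to 1913.3 CPM in CFC30. Inhibitory neuron markers summed to 2204.6 to 2502.7 and 2273 to 2558.2 CPM but were as high in naive NeuN- nuclei, at 2284.1 to 2508.9 CPM, so their sum does not mark the sorted fraction. No marker was at 0. Fewer nuclei of a type and less RNA per nucleus cannot be told apart in such pooled samples.

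At 30 minutes 580 genes were called higher than in naive and 483 lower, which are 4.67% and 3.89% of the 12422 tested. At an unadjusted p under 0.05 there were 2832 genes. Most changes were small. The median risen gene had a log2 fold change of 0.26, or 20% more RNA, and the median fallen gene one of -0.3. Only 8 of the risen and 10 of the fallen genes changed past 2-fold, and 58 and 44 past 1.5-fold. In 498 of the 580 risen and 415 of the 483 fallen genes the 4 CFC30 libraries did not overlap the 4 naive ones, as in 14% of all genes tested. Some genes entered the test through the group where they were high: 26 of the risen genes did not pass the filter on level in naive and 40 of the fallen not in CFC30. Without CFC30 replicate 2 there were 353 risen and 264 fallen genes, and with upper-quartile scaling 460 and 629, so that the balance of rises and falls depends on the scaling. Of the risen genes 96% were protein coding and of the fallen 86.5%, against 83.3% of all tested. Among long intergenic noncoding RNAs 25 fell, 9 rose and 346 were not called.

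**Figure D1:**
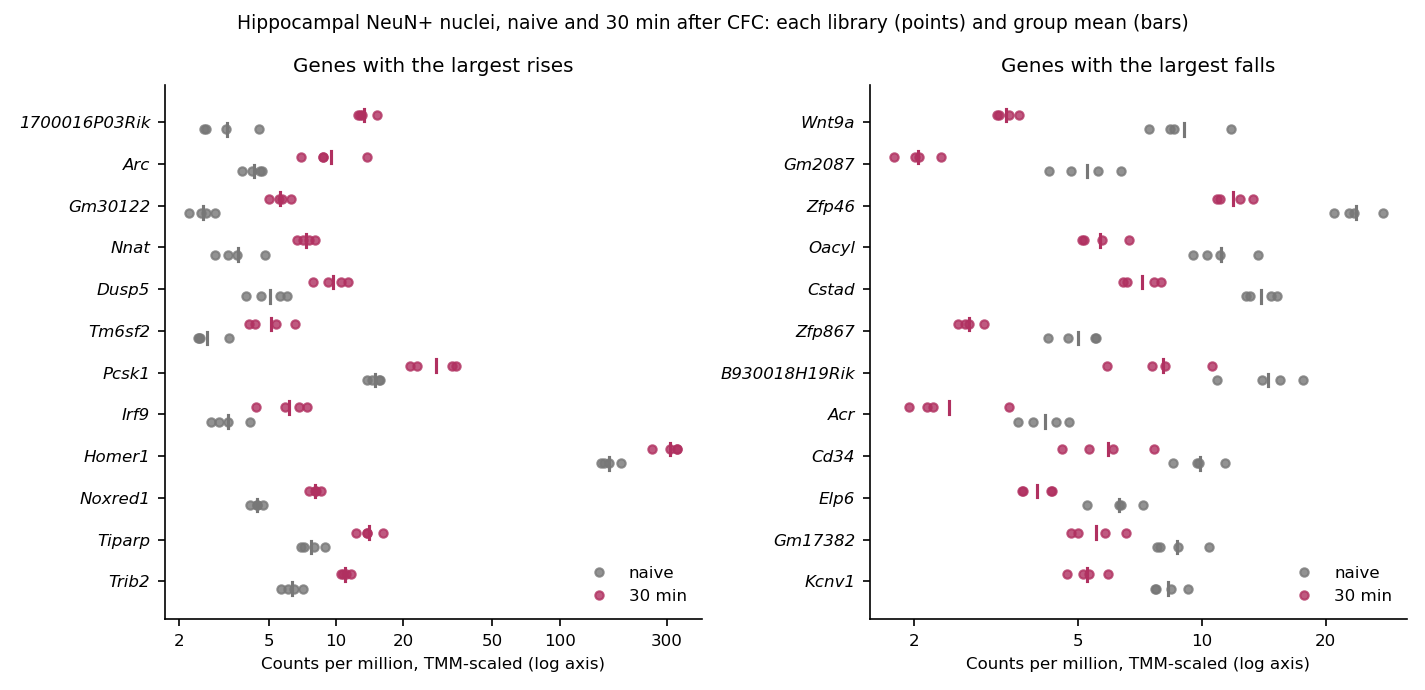
CPM, scaled by the trimmed mean of M-values, on log axes for the 12 largest rises and the 12 largest falls named by rule, with a point for each of the 4 naive and 4 CFC30 libraries and a bar for each group mean. The libraries of the 2 groups do not overlap in any of these genes, which the rule required, and 1700016P03Rik stands farthest apart, with 2.58 to 4.55 CPM in naive and 12.5 to 15.2 CPM in CFC30.

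Among early response transcription factors 9 of 22 tested members rose and none fell, against 4.67% and 3.89% of all genes, with a median log2 fold change of 0.51 against -0.005 over all genes. At an unadjusted p under 0.05, 12 members were higher and none lower, and DESeq2 called 7 higher and none lower. Of the risen members *Fos* and *Fosb* did not pass the filter on level in naive, a mean FPKM (counts per kb and library size) above 0.2, and *Fosb* passed it in CFC10 alone. The risen members were *Fos*, *Fosb*, *Fosl2*, *Egr1*, *Egr3*, *Npas4*, *Nr4a1*, *Nr4a2* and *Nr4a3*. *Fos*, a partner of Jun proteins in the dimer AP-1, was sparse, with 2, 2, 1 and 1 counts in the naive and 8, 6, 19 and 6 counts in the CFC30 libraries. Every CFC30 library was above every naive one and CFC30 replicate 3 was the highest by far. The ratio of the summed counts was 6.25 with a 95% counting interval of 2.63 to 18.1, and the adjusted p was 0.0118, or 0.0531 without CFC30 replicate 3. *Egr1*, a zinc finger transcription factor, stood at 3.23, 2.25, 1.7 and 2.84 CPM in naive and 3.67, 3.35, 6.3 and 3.49 CPM in CFC30. The groups did not overlap but nearly touched, again with CFC30 replicate 3 apart, and the log2 fold change was 0.77 ± 0.22 (SE) with an adjusted p of 0.0363. *Npas4*, a transcription factor largely restricted to neurons, stood at 3.67, 3.44, 4.25 and 2.58 CPM in naive and 4.15, 4.81, 6.51 and 4.93 CPM in CFC30. Here the lowest CFC30 library lay below the highest naive one, and the log2 fold change was 0.55 ± 0.16 (SE) with an adjusted p of 0.0318. Without CFC30 replicate 3 the adjusted p was 0.16 for *Egr1*, 0.132 for *Npas4* and 0.167 for *Nr4a1*, and without naive replicate 2 only 4 members of the list were called.

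Of the orphan nuclear receptors of the Nr4a family, *Nr4a2* and *Nr4a3* were called in all 15 alternative fits, but *Nr4a1* in only 8. *Nr4a3* stood at 52, 44.9, 51.2 and 43.5 CPM in naive and 59, 66.8, 85.3 and 92.6 CPM in CFC30. The groups were apart and the log2 fold change was 0.67 ± 0.1 (SE) with an adjusted p of 0.000553. *Nr4a2* rose by 0.61 on the log2 scale with an adjusted p of 0.00233, and *Nr4a1* by 0.35 with 0.0437. *Fosl2*, a Fos relative that also forms AP-1, stood at 14.8, 14.1, 12.7 and 14.5 CPM in naive and 19.1, 19.8, 23.4 and 21.2 CPM in CFC30, a log2 fold change of 0.58 ± 0.1 (SE) with an adjusted p of 0.0012. *Junb*, another AP-1 subunit, was not called, with 0.787, 1.44, 1.19 and 1.72 CPM in naive and 1.66, 1.72, 2.86 and 1.36 CPM in CFC30, a log2 fold change of 0.56 and an adjusted p of 0.228.

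Of the activity-regulated effectors, the genes that such factors and the same signals switch on, 18 of 41 tested rose and 1 fell, with a median log2 fold change of 0.25. The shares were 43.9% and 2.44%, against 4.67% and 3.89% of all genes, and 13 rose without CFC30 replicate 2. The risen genes were *1700016P03Rik*, *Arc*, *Arl5b*, *Baiap2*, *Dnajb5*, *Foxo6*, *Frmd6*, *Homer1*, *Inhba*, *Irs2*, *Midn*, *Ntrk2*, *Pcsk1*, *Plk3*, *Rtn4rl2*, *Sik1*, *Sorcs3* and *Tiparp*, and *Ptgs2*, the inducible cyclooxygenase, fell. *Arc* (chr15:74669083-74672570, minus strand) encodes a protein that drives removal of AMPA-type glutamate receptors from synapses. It stood at 4.2, 3.82, 4.67 and 4.57 CPM in naive and 6.99, 8.76, 13.7 and 8.72 CPM in CFC30. All CFC30 libraries were higher and replicate 3 was the highest, with a log2 fold change of 1.16 ± 0.17 (SE) and an adjusted p of 0.000309. *Homer1* (chr13:93299635-93405129, plus strand) encodes a postsynaptic scaffold whose short activity-induced form uncouples metabotropic glutamate receptors from their partners. It stood at 186.8, 152.2, 164.9 and 157.6 CPM in naive and 258.5, 309.7, 335.1 and 332 CPM in CFC30. The gap was wider than the spread of either group, with a log2 fold change of 0.9 ± 0.07 (SE) and an adjusted p of 3.55e-07, and counts over the gene body do not separate the long from the short form.

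*Pcsk1* (chr13:75089826-75134861), the protease that cuts prohormones and neuropeptide precursors, stood at 15.8, 14.5, 13.8 and 15.6 CPM in naive and 21.4, 23.1, 33 and 34.4 CPM in CFC30. The CFC30 libraries fell into a lower and a higher pair, both above naive, and the log2 fold change was 0.91 ± 0.12 (SE) with an adjusted p of 0.000145. *Tiparp*, a mono-ADP-ribosyltransferase, rose by 0.85 on the log2 scale with an adjusted p of 7.82e-05. *Ntrk2*, the receptor of brain-derived neurotrophic factor, stood at 661.9, 609.9, 669.1 and 620.2 CPM in naive and 766.3, 841.1, 847.1 and 827.5 CPM in CFC30. The groups were well apart although the log2 fold change was only 0.36 ± 0.05 (SE), with an adjusted p of 7.82e-05. Its ligand *Bdnf*, looked up after the values were seen, had 48.5, 38.6, 40.6 and 34 CPM in naive and 40.4, 40.6, 47.3 and 47.8 CPM in CFC30 over all its promoters together, and its adjusted p was 0.376. In the mPFC its log2 fold change was 1.01 with an adjusted p of 1.46e-07. *Plk2*, a kinase that acts on synaptic strength, had a log2 fold change of 0.02 and an adjusted p of 0.891, and *Actb*, the cytoplasmic beta-actin, had 0.06 and 0.721.

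Among genes that restrain the MAP kinase pathway, 7 of 20 tested rose and 1, the Ras inhibitor *Rasa1*, fell. That is 35% and 5%, against 4.67% and 3.89% of all genes, and 5 rose without naive replicate 2. The risen genes included the MAP kinase phosphatases *Dusp4* and *Dusp5*, the Ras-pathway inhibitors *Spred1*, *Spred2* and *Spred3*, and *Errfi1*, an inhibitor of the epidermal growth factor receptor. *Dusp5* stood at 6.03, 4.63, 5.61 and 3.96 CPM in naive and 7.89, 9.19, 11.3 and 10.5 CPM in CFC30. The groups were apart, with a log2 fold change of 0.95 ± 0.13 (SE) and an adjusted p of 0.000183. *Spred2* stood at 236.6, 223.1, 213.7 and 196.7 CPM in naive and 303.5, 294.7, 294.8 and 308.5 CPM in CFC30, and the CFC30 libraries lay close together above the naive ones. Its log2 fold change was 0.47 ± 0.05 (SE) with an adjusted p of 4.1e-05. *Spred1* rose by 0.56 with an adjusted p of 5.98e-05 and *Errfi1* by 0.47 with 0.000309. *Trib2*, a pseudokinase of the Tribbles family that scaffolds protein degradation and was named for its size of change, stood at 6.47, 5.7, 7.13 and 6.12 CPM in naive and 10.5, 11.7, 11.1 and 10.8 CPM in CFC30. Neither group spread much, and the log2 fold change was 0.8 ± 0.09 (SE) with an adjusted p of 4.1e-05.

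Cytosolic chaperones, which fold proteins and are part of the heat shock response, had 9 of 43 tested members higher, 20.9%, and none lower, with a median log2 fold change of 0.15. Of all genes 4.67% were higher and 3.89% lower, and 6 chaperones were higher without naive replicate 3. At an unadjusted p under 0.05, 20 were higher and 2 lower, and DESeq2 called 8 higher and none lower. The risen genes were *Hspa8*, *Hsph1*, *Hspa4*, *Hspa4l*, *Dnajb5*, *Stip1*, *St13*, *Fkbp4* and *Chordc1*, that is, Hsp70-type proteins and co-chaperones of Hsp70 and Hsp90. *Hsph1* (chr5:149614287-149636376, minus strand), a large Hsp70 relative that exchanges the nucleotide of Hsp70, stood at 33.7, 36.5, 31.6 and 35.2 CPM in naive and 52.5, 61.5, 54.4 and 51.5 CPM in CFC30. The groups were far apart, with a log2 fold change of 0.68 ± 0.08 (SE) and an adjusted p of 5.76e-05. *Hspa8*, the constitutive Hsp70, stood at 28.2, 34.9, 23 and 38.6 CPM in naive and 44.2, 47.2, 52.9 and 42.5 CPM in CFC30. The spread within naive was wide but all CFC30 libraries were higher, with a log2 fold change of 0.58 ± 0.11 (SE) and an adjusted p of 0.00234. *Dnajb5*, an Hsp40 co-chaperone, rose by 0.58 with an adjusted p of 0.000142 and *Hspa4* by 0.32 with 0.000388. *Hsp90ab1*, the constitutive Hsp90, was not called, with 52.9, 69.6, 48.5 and 71.9 CPM in naive and 72.5, 84.6, 77.4 and 65.3 CPM in CFC30 and an adjusted p of 0.113. *Dnaja1*, another Hsp40, had a log2 fold change of 0.18 and an adjusted p of 0.0677.

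In the endoplasmic reticulum, where secreted and membrane proteins fold, 13 of 65 tested folding and unfolded-protein-response genes rose and 2 fell, with a median log2 fold change of 0.06. The shares were 20% and 3.08%, against 4.67% and 3.89% of all genes, and 9 rose without naive replicate 3. The risen genes held the lumenal chaperones *Hspa5*, *Hsp90b1* and *Calr*, the disulfide isomerases *Pdia3*, *Pdia4* and *Pdia6*, the oxidase *Ero1lb*, the co-chaperone *Dnajc3*, the stress sensor *Ern1*, the degradation factor *Herpud1*, *Ostc*, *Txndc11* and *Nnat*. *Txndc5*, a disulfide isomerase, and *Sil1*, the nucleotide exchange factor of *Hspa5*, fell. *Nnat* (chr2:157560078-157562522, plus strand), a small membrane protein of the reticulum expressed from the paternal allele, stood at 2.88, 4.82, 3.31 and 3.62 CPM in naive and 7.55, 8.08, 7.16 and 6.67 CPM in CFC30. Its lowest CFC30 library was above its highest naive one, with a log2 fold change of 0.97 ± 0.17 (SE) and an adjusted p of 0.00158. *Nnat* lies wholly within *Blcap* on the opposite strand, which had a log2 fold change of -0.07 and an adjusted p of 0.517. *Hspa5*, the main chaperone of the reticulum, stood at 22.9, 25.4, 18.6 and 20.2 CPM in naive and 32.1, 28.7, 30.4 and 27.9 CPM in CFC30, a log2 fold change of 0.44 ± 0.09 (SE) with an adjusted p of 0.00383. *Sil1* stood at 95.4, 87.3, 92.2 and 82.9 CPM in naive and 68.1, 71.6, 71 and 71.9 CPM in CFC30. It moved opposite to its partner, falling in all libraries by 0.34 on the log2 scale with an adjusted p of 0.000932. *Xbp1*, the transcription factor activated by *Ern1*, was not called, with a log2 fold change of 0.32 and an adjusted p of 0.176.

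**Figure D2:**
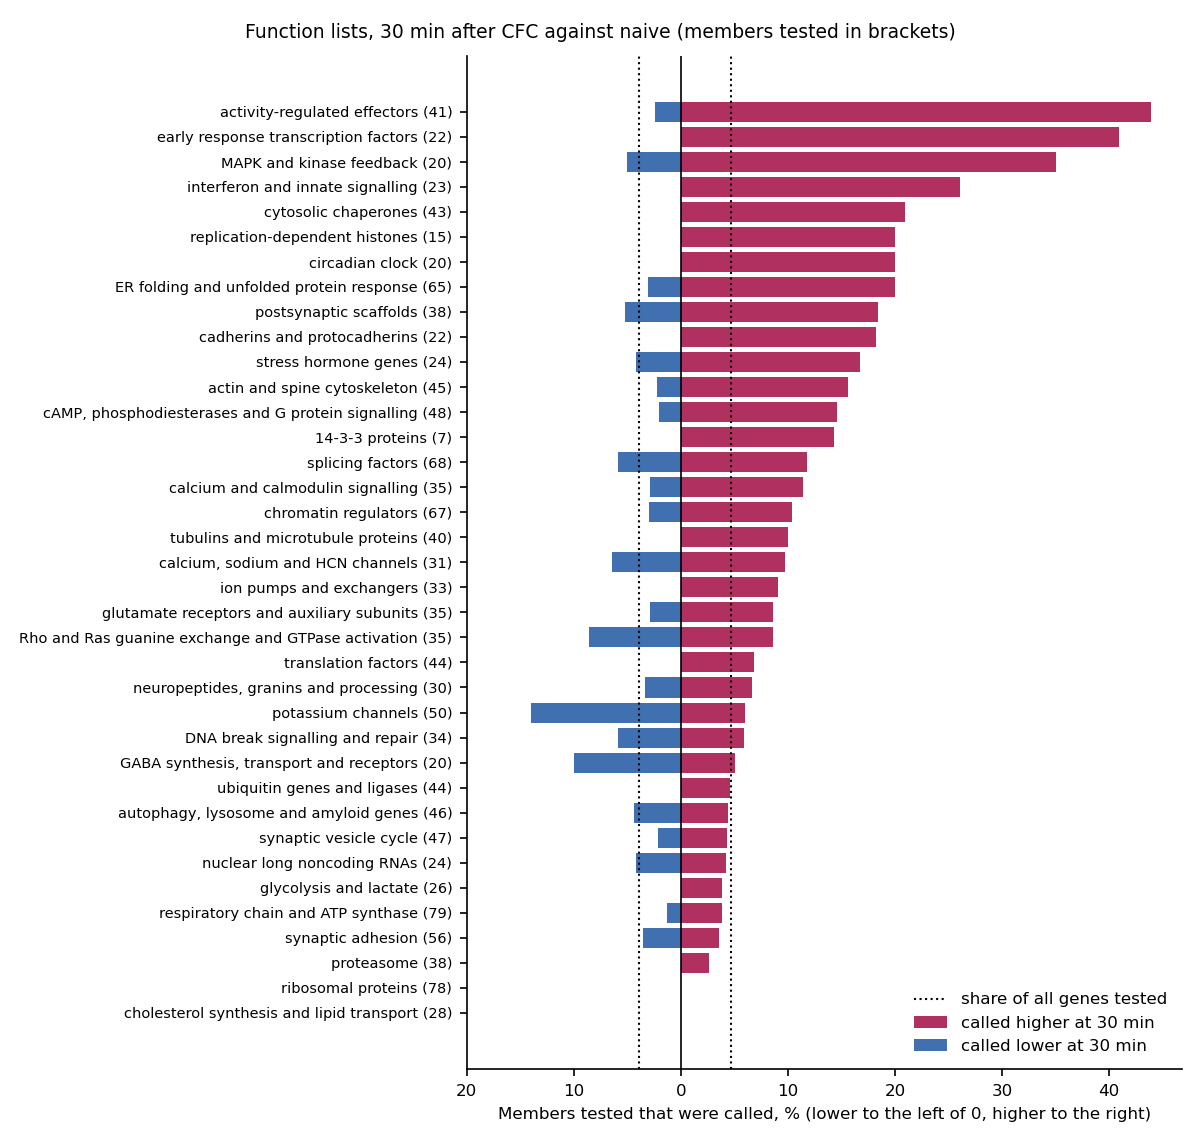
For each of 37 function lists, the percent of tested members called higher (to the right of 0) and called lower (to the left) at 30 minutes against naive, with the number tested in brackets. Dotted lines mark the share of all genes, 4.67% higher and 3.89% lower. Activity-regulated effectors, early response transcription factors and MAPK feedback genes reach farthest to the right, and potassium channels farthest to the left.

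At the synapse, 7 of 38 tested scaffold genes rose and 2 fell, 18.4% and 5.26% against 4.67% and 3.89% of all genes. The median log2 fold change of the list was 0, with 19 members above 0. At an unadjusted p under 0.05, 7 were higher and 6 lower. The risen ones included *Homer1*, *Dlg4*, *Dlgap3*, *Dlgap4*, *Shank1* and the presynaptic *Bsn*, and the fallen ones *Cnksr2* and *Akap7*. *Dlg4*, which encodes the major scaffold PSD-95, stood at 123.9, 115.3, 108.9 and 118.4 CPM in naive and 172.7, 159.4, 142.7 and 131.7 CPM in CFC30. The CFC30 libraries spread widely but all lay above naive, with a log2 fold change of 0.38 ± 0.07 (SE) and an adjusted p of 0.00188. *Shank1* and *Dlgap3*, which link PSD-95 to the actin cytoskeleton, each rose by 0.21 on the log2 scale. Actin and spine genes gave 7 of 45 higher and 1 lower, but 4 higher without naive replicate 2. *Baiap2*, *Arpc2* and *Cdc42*, a signalling adaptor, a subunit of the actin-branching complex and a small GTPase, rose by 0.28, 0.25 and 0.23.

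Receptors and channels moved in both directions. Of 35 tested glutamate receptor genes 3 rose, all of them auxiliary subunits, *Neto2* by 0.4, *Cnih2* by 0.31 and *Cacng8* by 0.22 on the log2 scale. The metabotropic receptor *Grm3* fell by 0.3. The shares were 8.57% higher and 2.86% lower, against 4.67% and 3.89% of all genes. Among GABA genes the synthesising enzyme *Gad1* rose by 0.32 with an adjusted p of 0.00388. The call of *Grm3* was lost without any of several single libraries, with an adjusted p of up to 0.0791, and that of *Cacng8* without CFC30 replicate 2, at 0.0599. Potassium channels had the highest share of falls of the 37 lists, 7 of 50 tested, 14%, with 3 rises and a median log2 fold change of -0.06. At an unadjusted p under 0.05, 11 were higher and 11 lower, and the rises were 1 without naive replicate 3 and 6 without CFC30 replicate 4. Those that fell were *Kcna4*, *Kcnj2*, *Kcnj4*, *Kcnk2*, *Kcnk10*, *Kcnt2* and *Kcnv1*, of the voltage-gated, inward rectifier, 2-pore and sodium-activated families, and *Kcnip2*, *Kcng1* and *Kcnn3* rose. *Kcnv1*, a modifier subunit that silences its partners, stood at 7.69, 9.27, 8.41 and 7.75 CPM in naive and 4.71, 5.33, 5.15 and 5.91 CPM in CFC30. The groups were apart, with a log2 fold change of -0.66 ± 0.13 (SE) and an adjusted p of 0.00373. *Kcna4*, an A-type channel, stood at 42.6, 37.8, 34.7 and 39.9 CPM in naive and 28.4, 27.2, 28.4 and 28.5 CPM in CFC30, and *Kcnip2*, which regulates A-type channels of another family, at 81.3, 73.8, 72.2 and 78.3 CPM in naive and 118.3, 113.3, 98.6 and 88.8 CPM in CFC30. Both were apart in all libraries and moved in opposite directions, *Kcna4* by -0.46 with an adjusted p of 0.00107 and *Kcnip2* by 0.46 with 0.000759.

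In cAMP and G protein signalling 7 of 48 tested genes rose and 1, the adenylyl cyclase *Adcy1*, fell. That is 14.6% and 2.08%, against 4.67% and 3.89% of all genes. Without CFC30 replicate 2 the rises were 4. *Pde10a*, a phosphodiesterase that breaks down cyclic nucleotides, stood at 956.3, 947.1, 1065.3 and 995.9 CPM in naive and 1225.6, 1313.5, 1356.9 and 1302.7 CPM in CFC30. All CFC30 libraries were higher, with a log2 fold change of 0.39 ± 0.05 (SE) and an adjusted p of 0.000183. *Prkar2a*, a regulatory subunit of protein kinase A, rose by 0.3, *Pde4a*, another phosphodiesterase, by 0.32, and *Creb1*, the transcription factor that the kinase phosphorylates, by 0.25 with an adjusted p of 0.00749. Of the calcium-binding and calmodulin genes 4 of 35 rose, 11.4%, or 2 without naive replicate 3. *Camk2g*, a subunit of calcium/calmodulin-dependent kinase II, fell by 0.28 with an adjusted p of 0.000797, the only fall of the list, 2.86%.

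Clock and hormone-responsive genes followed. *Per1*, *Per2*, *Cry1* and *Hlf* rose among 20 tested clock genes, 20% against 4.67% of all genes, and none fell. At an unadjusted p under 0.05, 7 were higher and 2 lower, DESeq2 called 3 higher and none lower, and without naive replicate 1 only *Per1* and *Per2* were called. *Per2*, a repressor of the clock that is also induced by activity, stood at 32.1, 30.4, 37 and 27.9 CPM in naive and 50.1, 47.5, 51.7 and 48.1 CPM in CFC30. The groups were well apart, with a log2 fold change of 0.63 ± 0.07 (SE) and an adjusted p of 4.1e-05. *Per1* rose by 0.42 with an adjusted p of 0.000564. Of 24 tested stress hormone genes, those known to answer to glucocorticoids or to carry their signal, 4 rose, 16.7%, *Per1*, *Errfi1*, *Klf9* and *Bcl6*. *Cebpd* fell, 4.17% against 3.89% of all genes. Leaving out any of 5 single libraries ended its call, with adjusted p of up to 0.0884. *Bcl6*, a transcriptional repressor, rose by 0.43 with an adjusted p of 0.000676. *Sgk1*, a kinase that glucocorticoids induce, was not called in NeuN+ nuclei, with 104.4, 94.6, 105.3 and 91.9 CPM in naive and 75.9, 87.3, 89.5 and 103.6 CPM in CFC30 and a log2 fold change of -0.15. *Ddit4*, another such gene, had a log2 fold change of 0.07 with an adjusted p of 0.92, and *Glul*, the glutamine synthetase of astrocytes, -0.24 with 0.538.

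Of 23 tested interferon and innate signalling genes 6 rose, *Irf9*, *Irf2*, *Jak2*, *Stat3*, *Socs7* and *Traf3*, and none fell. The same counts held at an unadjusted p under 0.05 and with DESeq2. The share that rose was 26.1%, against 4.67% of all genes. *Irf9*, the DNA-binding subunit of the interferon-activated factor, stood at 4.11, 3, 3.31 and 2.76 CPM in naive and 7.41, 6.87, 5.94 and 4.4 CPM in CFC30. The groups were apart, with a log2 fold change of 0.91 ± 0.17 (SE) and an adjusted p of 0.00246. *Stat3* and *Jak2*, a transcription factor and the kinase that activates it, rose by 0.45 and 0.27. Microglial markers stood at the low sums given above in both groups.

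Among splicing factors 8 of 68 tested rose, 11.8%, and 4 fell, 5.88%, against 4.67% and 3.89% of all genes. Without naive replicate 3 the rises were 4. *Ptbp2*, the neuronal polypyrimidine tract protein, stood at 133.3, 128.5, 133.2 and 132.8 CPM in naive and 108.1, 102.7, 106.6 and 117.7 CPM in CFC30. It fell by 0.28 on the log2 scale in libraries that did not overlap, with an adjusted p of 0.0011. *Clk1*, a kinase of splicing factors, and *Srsf5*, one of the proteins such kinases act on, rose by 0.21 and 0.2, and *Luc7l*, a component of the U1 particle, fell by 0.21. Of 67 chromatin regulators 7 rose, 10.4%, and 2 fell, 2.99%, and without naive replicate 2 the rises were 3. Of the 7 risen genes 4 encode histone demethylases, *Kdm2a*, *Kdm3a*, *Kdm6b* and *Kdm7a*. *Kdm7a* stood at 97.2, 93.8, 86.8 and 90 CPM in naive and 129.2, 131.3, 124.5 and 122 CPM in CFC30. Its groups were far apart, with a log2 fold change of 0.46 ± 0.05 (SE) and an adjusted p of 7.89e-06. *Arid1a*, a subunit of a nucleosome remodelling complex, rose by 0.23 with an adjusted p of 0.00158 and *Med12*, a subunit of Mediator, fell by 0.26 with 0.00436. In the DNA break and repair list 2 of 34 rose and 2 fell, 5.88% each, near the shares of all genes. At an unadjusted p under 0.05, 2 were higher and 6 lower. None fell with DESeq2 or without naive replicate 1, where 1 rose. *Top1*, the topoisomerase that relieves torsion ahead of the polymerase, stood at 127.4, 120.3, 111.1 and 126.6 CPM in naive and 147.2, 151.7, 143.1 and 145.6 CPM in CFC30, a rise of 0.28 with an adjusted p of 0.00137.

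Over all genes tested 4.67% rose and 3.89% fell. Ribosomal protein and cholesterol genes held no calls, while the shares of rises in the other housekeeping lists lay on both sides of that of all genes. None of 78 tested ribosomal protein genes was called by edgeR or DESeq2, with a median log2 fold change of 0 and 1 gene higher and 1 lower at an unadjusted p under 0.05. None of 28 genes of cholesterol synthesis and lipid transport was called by either tool, with 3 higher and 1 lower at an unadjusted p under 0.05. With 1 library left out, up to 1 ribosomal and 3 cholesterol genes were called higher, the latter without CFC30 replicate 1. In the respiratory chain 3 of 79 rose, 3.8%, and 1 fell, 1.27%, but 1 rose with DESeq2 and without naive replicate 1. At an unadjusted p under 0.05 there were 5 higher and 9 lower. In glycolysis 1 of 26 rose, 3.85%. That gene was *Slc16a1*, a carrier of lactate, which rose by 0.43 with an adjusted p of 0.00457. Replication-dependent histones gave 3 of 15 higher, 20%, but none without naive replicate 3. Translation factors gave 3 of 44, 6.82%, but none without naive replicate 1. Of 38 proteasome genes 1 rose, 2.63%, and none without naive replicate 1. Of 44 ubiquitin genes and ligases 2 rose, 4.55%, and no gene of either list fell.

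Of the 12 largest falls named by rule, with libraries fully apart and a mean of at least 50 counts in the higher group, only the potassium channel *Kcnv1* belonged to a function list. *Wnt9a* (chr11:59306928-59333552, plus strand), a secreted Wnt ligand, stood at 11.8, 7.45, 8.58 and 8.36 CPM in naive and 3.6, 3.18, 3.22 and 3.41 CPM in CFC30. The CFC30 libraries hardly varied and lay far below naive, with a log2 fold change of -1.41 ± 0.14 (SE) and an adjusted p of 7.89e-06. *Zfp46* (chr4:136284683-136293942), a zinc finger protein, stood at 27.5, 21, 23.5 and 22.8 CPM in naive and 13.3, 10.9, 11.1 and 12.4 CPM in CFC30. Every CFC30 library was well below every naive one, with a log2 fold change of -0.98 ± 0.11 (SE) and an adjusted p of 3.35e-05. *Gm2087*, an antisense transcript of which 41.6% lies opposite *Lca5*, fell by 1.35 with an adjusted p of 5.98e-05, while *Lca5* itself had a log2 fold change of -0.17 and an adjusted p of 0.152. *Cstad* fell by 0.95 with an adjusted p of 7.89e-06 and *Zfp867*, another zinc finger gene, by 0.88 with 0.000759. *Cd34*, a sialomucin best known from blood progenitors and vessels, stood at 11.4, 8.51, 9.85 and 9.74 CPM in naive and 4.57, 5.33, 6.08 and 7.66 CPM in CFC30. It fell by 0.73 with an adjusted p of 0.00204, while the summed endothelial and mural markers were 7.3 to 24.5 CPM in naive and 6.58 to 14.2 CPM in CFC30. The part of those cells in this fall was not tested. Among noncoding RNAs *C130071C03Rik* fell by 0.41 with an adjusted p of 0.00121, and *Gm30122* rose from 2.62, 2.88, 2.21 and 2.5 CPM to 5.75, 6.27, 5.58 and 5 CPM, a log2 fold change of 1.13 ± 0.14 (SE) with an adjusted p of 5.76e-05.

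The 30-minute level was then set against the 10-minute level, to see which genes differed between the 2 times. In this direct comparison 17 genes were higher at 30 minutes and 20 lower, or 0.137% and 0.161% of genes tested, and with upper-quartile scaling 12 and 23. Leaving out 1 library gave 7 to 60 higher and 10 to 49 lower genes, with the fewest higher without CFC30 replicate 3 and the most of both without CFC30 replicate 1. The largest differences among the lower genes were in early transcription factors. Not every lower gene had risen at 10 minutes. *Usp2*, *Zfp64*, *Slc27a2* and *Chst12* had log2 fold changes against naive of -0.03, -0.13, 0.05 and 0.15 at 10 minutes, none called. At 30 minutes they were called lower than naive, at -0.37, -0.53, -0.37 and -0.35. *Npas4* stood at 17.8, 16.2, 15.7 and 17.7 CPM in CFC10, far above both the CFC30 values of 4.15 to 6.51 and the naive values of 2.58 to 4.25. The difference between 30 and 10 minutes was -1.73 ± 0.12 (SE) on the log2 scale with an adjusted p of 1.89e-08. *Egr1* stood at 10.9, 13.7, 10.2 and 12.9 CPM in CFC10 and differed by -1.49 ± 0.16 (SE) with an adjusted p of 4.64e-05. *Arc* stood at 19, 18.7, 21.4 and 19.6 CPM in CFC10, above each of its CFC30 values, and differed by -1.04 with an adjusted p of 0.000153. *Fos* had 143 counts over the CFC10 libraries against 39 at 30 minutes and 6 in naive, and *Fosb* 162 against 31 and 8. *Fosb* passed the filter on level through the CFC10 libraries alone, so that it could be tested only as a gene high at 10 minutes. *Junb* differed by -1.12 with an adjusted p of 0.0144, and *Errfi1* by -0.42 with 0.00182. *Btg2* and *Tob2*, antiproliferative proteins of 1 family named here as called genes of this comparison, differed by -0.99 and -0.81.

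The genes that were higher at 30 than at 10 minutes were *Homer1*, *Pcsk1*, *Etv5*, *Spred1*, *Dlx6os1*, *Zdbf2*, *Arl5b*, *Hsph1*, *Rims4*, *Spred2*, *Per2*, *Lemd3*, *Sik2*, *Chordc1*, *Arih1*, *Ints6* and *Hspa4*. *Homer1* stood at 186.3, 182.7, 210.3 and 188.4 CPM in CFC10, near its naive range and far below its CFC30 range of 258.5 to 335.1. It differed by 0.69 ± 0.07 (SE) with an adjusted p of 3.71e-05. *Pcsk1* stood at 19.2, 15.5, 17.1 and 17.2 CPM in CFC10, below all CFC30 libraries, and differed by 0.69 ± 0.12 (SE) with an adjusted p of 0.007. *Spred1* stood at 80.6, 76.2, 77.6 and 79.1 CPM in CFC10, within its naive range, and differed by 0.5 with an adjusted p of 0.000861. *Etv5*, a transcription factor downstream of MAP kinase signalling, had 38.3, 35.8, 39.4 and 36.1 CPM in CFC10 and 42.9, 54.4, 69.4 and 69 CPM in CFC30, a difference of 0.65 with an adjusted p of 0.013. The chaperones *Hsph1*, *Hspa4* and *Chordc1* differed by 0.37, 0.22 and 0.25. *1700016P03Rik* did not pass this test, with 15.5, 12.5, 14.2 and 13.8 CPM in CFC10, a range that its CFC30 libraries shared, and a difference of -0.06 ± 0.1 (SE).

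**Figure D3:**
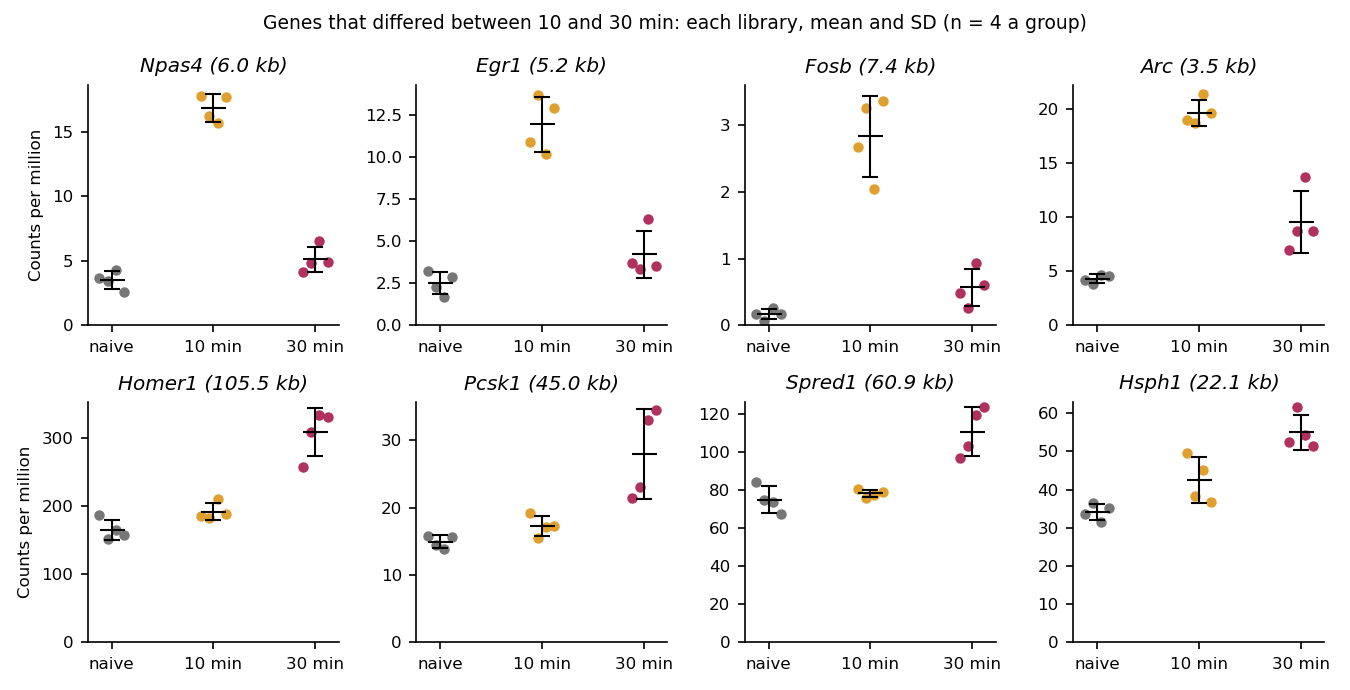
CPM of 8 genes in each naive, CFC10 and CFC30 library (points) with the mean and SD of 4 libraries a group, and the length of the gene body in brackets. Npas4, Egr1, Fosb and Arc are highest at 10 minutes, and Homer1, Pcsk1, Spred1 and Hsph1 at 30 minutes.

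The genes on either side of this comparison differed in length. The gene bodies of the 17 higher genes had a median of 55.9 kb and those of the 20 lower genes one of 12.7 kb, against 20.3 kb over all tested. Across the 12422 genes tested, which share libraries and are not independent replicates, the difference between 30 and 10 minutes followed log length with a Spearman's rho of 0.21, and the fold change against naive with one of 0.04. Risen genes had a median gene body of 44.8 kb and fallen genes one of 39.8 kb. With the genes split by length into 10 groups of equal size, 9.98% of genes of 43.7 to 68.8 kb and 9.82% of genes of 68.8 to 130 kb rose, but 4.02% of those of 130 to 2270.7 kb did and 6.68% of these fell. No gene of the shortest group, up to 1.39 kb, rose and 0.241% fell. The filter on level was per kb of gene body, so that shorter genes could enter the test with fewer counts. The part of count level in these shares and medians was not tested.

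**Figure D4:**
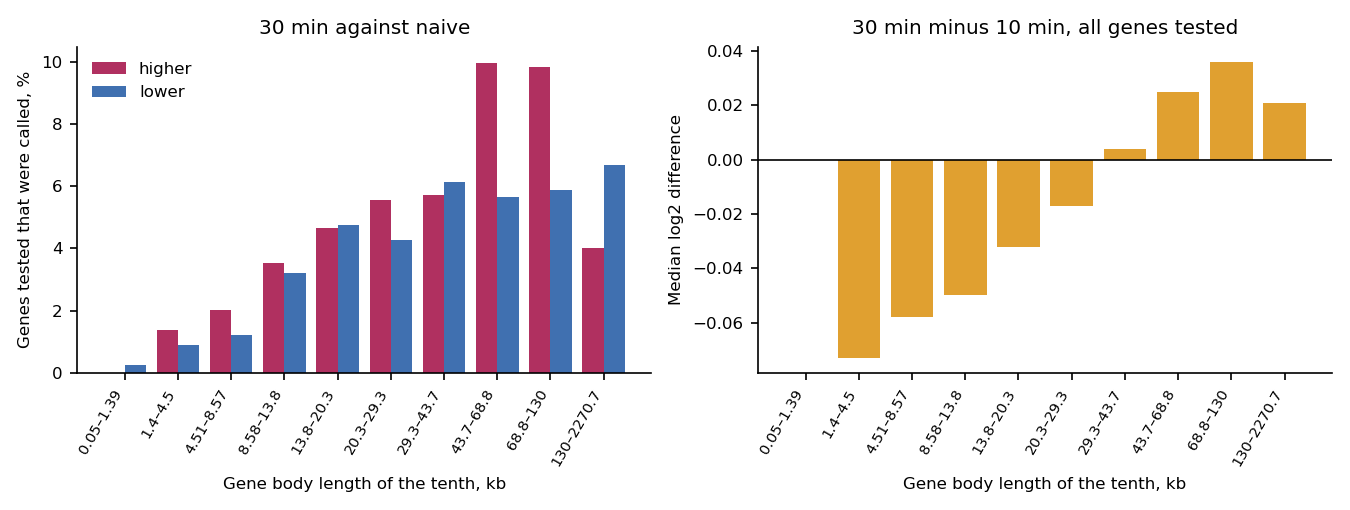
Left, percent of tested genes called higher and lower at 30 minutes against naive in 10 equal groups by gene body length (kb), with the most rises, 9.98% and 9.82%, in the groups from 43.7 to 130 kb. Right, the median log2 difference between 30 and 10 minutes of all genes tested in the same groups, which is below 0 from 1.4 to 29.3 kb and above 0 in longer genes.

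Whether the response differed between the fractions was asked with the interaction of fraction and condition in the 23 distinct hippocampal libraries. The difference carries a sign and does not rank the size of a response. *Zfp46*, at -0.98 in NeuN+ and -0.13 in NeuN- nuclei, counts as lower in NeuN+. *Gm45846*, at -0.24 and -0.86, counts as higher. The log2 fold change of NeuN+ nuclei was above that of NeuN- nuclei in 25 of 15877 genes and below it in 22, or 0.157% and 0.139%. Leaving out 1 library gave 9 to 31 and 5 to 23 genes, with the fewest without NeuN- naive replicate 3 and NeuN+ naive replicate 3. *Homer1* rose by 0.9 on the log2 scale in NeuN+ and had 0.08 in NeuN- nuclei, a difference of 0.83 ± 0.11 (SE) with an adjusted p of 0.000126. *Trib2* had 0.8 and -0.22, a difference of 1.02 ± 0.13 (SE) with an adjusted p of 6.89e-05. *Gm30122* had 1.13 and -0.4, *Nnat* 0.97 and -0.24, *Tiparp* 0.85 and -0.04 and *Spred1* 0.56 and -0.06, with differences of 1.53, 1.22, 0.9 and 0.63 and adjusted p of 0.0027, 0.0295, 0.00542 and 0.018.

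On the other side *Sgk1* rose by 0.96 in NeuN- nuclei with an adjusted p of 1.08e-06 and had -0.15 in NeuN+ nuclei. The difference was -1.11 ± 0.12 (SE) with an adjusted p of 9.98e-06. *Usp2*, a deubiquitinase under clock control named here after its values were seen, stood at 31.8, 29.1, 26.2 and 28.3 CPM in naive and 23.9, 21.8, 22.8 and 20.6 CPM in CFC30 NeuN+ nuclei. It fell there by 0.37, rose by 0.62 in NeuN- nuclei and so differed by -0.99 ± 0.1 (SE) with an adjusted p of 2.73e-06. *Zfp46* had -0.98 in NeuN+ and -0.13 in NeuN- nuclei, a difference of -0.85 with an adjusted p of 0.0322. Several early genes and chaperones were not among the genes that differed. *Nr4a3* had 0.67 in NeuN+ and 1.1 in NeuN- nuclei, *Fosl2* 0.58 and 0.68, *Hsph1* 0.68 and 0.92 and *Hspa8* 0.58 and 0.79, each called in both fractions. *Arc* was called in NeuN+ nuclei at 1.16 and not in NeuN- at 0.23, without passing the test of the difference. Neuronal markers in NeuN- nuclei, given above, were not at 0, and their part in the NeuN- values was not tested.

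**Figure D5:**
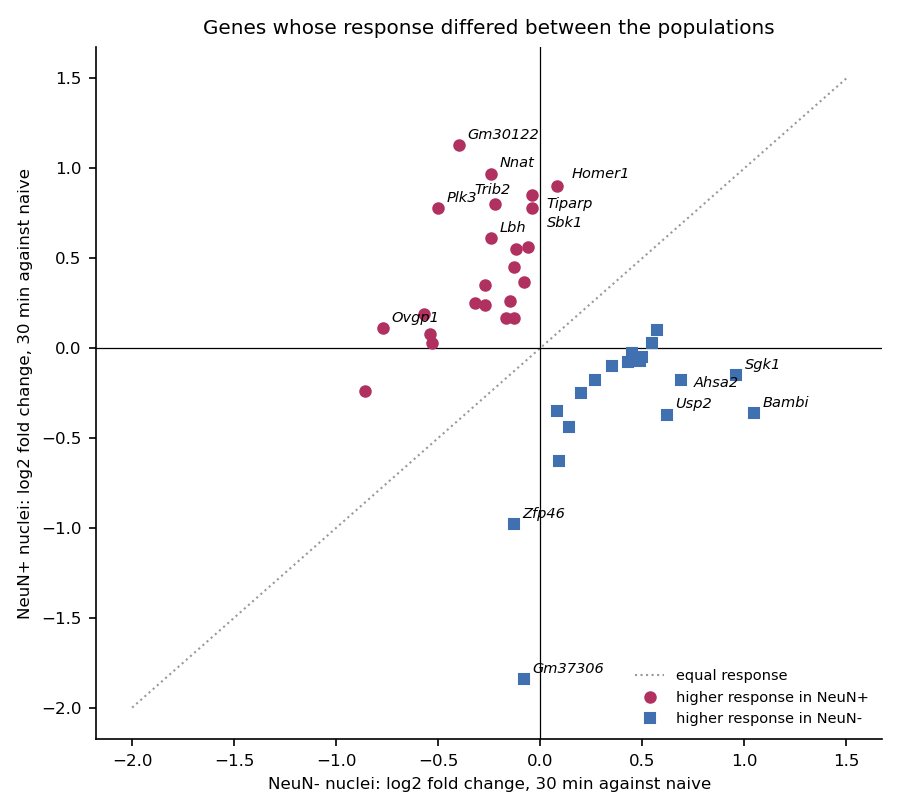
Log2 fold change at 30 minutes against naive in NeuN- nuclei (horizontal axis) and NeuN+ nuclei (vertical axis) for the 41 genes that were tested in both and whose response differed, 15 of them named, with a dotted line of equal response. Trib2 and Nnat lie above 0 on the vertical axis only, Homer1 has 0.9 on the vertical and 0.08 on the horizontal axis, and Sgk1 lies far to the right with a NeuN+ value of -0.15.

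The same comparison in NeuN+ nuclei of the mPFC gave 1701 higher and 1507 lower genes of 12981 tested, 13.1% and 11.6%, and with upper-quartile scaling 1341 and 1932. Of the 580 genes that rose in hippocampal neurons 424 were also called higher there, which is 73.1% of the hippocampal and 24.9% of the mPFC list, and 3 were called lower. Of the 483 that fell 327 were also called lower, 67.7% and 21.7%, and 2 higher. The log2 fold changes in hippocampus and mPFC were 2.07 and 3.08 for *1700016P03Rik*, 1.16 and 2.79 for *Arc*, 0.77 and 1.88 for *Egr1*, 0.58 and 1.91 for *Fosl2*, 0.9 and 1.63 for *Homer1* and 0.68 and 1 for *Hsph1*. Of the falls, *Wnt9a* had -1.41 and -0.6 and *Zfp46* -0.98 and -1. The regions were prepared with different versions of the library kit, so that region and kit cannot be told apart and no difference between them was tested.

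The deposited peaks of γH2AX, the phosphorylated histone that marks DNA double-strand breaks, came from whole hippocampus with naive and CFC peaks listed together. The list as used here held 282 peaks and named 306 genes, of which 296 were tested. It is shorter than the list the study describes, so that genes counted as without a peak may have one, and the shares are a description of the peaks used here. A peak lay at 40 of the 580 risen genes, 6.9%, and at 10 of the 483 fallen genes, 2.07%, against 2.38% of all tested genes and 2.17% of those not called. The paper reports that genes upregulated by CFC were over-represented among genes with a peak, particularly in the mPFC. It also reports more γH2AX at genes of higher expression in the mPFC. In its permutation test matched on expression, genes upregulated in neurons still had more γH2AX than their level predicted. Median FPKM in naive was 1.01 for risen, 0.703 for fallen and 0.757 for all tested genes, and median length 44.8, 39.8 and 20.3 kb. The part of level and length in these shares was not tested. The risen genes with a peak held early genes and effectors (*Egr1*, *Nr4a1*, *Per1*, *Arc*, *Homer1*, *1700016P03Rik*), chaperones (*Hspa8*, *Hspa5*, *Calr*, *Dnajb5*) and synaptic and cytoskeletal genes (*Bsn*, *Baiap2*, *Arpc2*, *Map2*, *Cnih2*, *Hpca*, *Slc17a7*).

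Promoters were read for 4 short motifs on both strands, from 250 bases before to 50 bases after the start, and a gene was counted if any of its RefSeq promoters held the motif. The motifs were the cAMP response element TGACGTCA, the core heat shock element GAANNTTC, the EGR sites GCGTGGGCG and GCGGGGGCG and the CArG box of serum response factor. Of the risen genes 442 had a promoter in the table, and 6.56%, 8.82%, 12.7% and 2.26% of them held these motifs. The shares were 3.19%, 6.12%, 6.91% and 1.33% of 376 fallen genes, 3.76%, 6.66%, 8.14% and 1.34% of genes not called and 2.03%, 9.04%, 3.93% and 1.81% of all 27025 genes with a promoter. The heat shock element was in 9 of 37 tested cytosolic chaperones with a promoter, 24.3%, and in 3 of the 7 that rose, *Hsph1*, *Fkbp4* and *Chordc1*. An EGR site was in 4 of 17 tested early transcription factors with a promoter, 23.5%, and in 3 of the 7 that rose, *Fosb*, *Fosl2* and *Nr4a1*. None of these 7 held a cAMP response element or a CArG box. Shown in full are the promoters of *Hsph1*, *Fosl2* and *Nnat*, risen members of the chaperone, early transcription factor and endoplasmic reticulum lists, from GRCm38.p6 with the motifs in capitals, 5′ to 3′ on the strand of the gene.
Hsph1: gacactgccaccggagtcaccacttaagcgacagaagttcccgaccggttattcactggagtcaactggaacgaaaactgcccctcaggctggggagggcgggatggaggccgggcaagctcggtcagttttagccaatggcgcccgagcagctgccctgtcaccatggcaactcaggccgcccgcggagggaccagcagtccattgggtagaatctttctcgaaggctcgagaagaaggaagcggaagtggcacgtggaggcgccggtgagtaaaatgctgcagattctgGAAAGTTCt
Fosl2: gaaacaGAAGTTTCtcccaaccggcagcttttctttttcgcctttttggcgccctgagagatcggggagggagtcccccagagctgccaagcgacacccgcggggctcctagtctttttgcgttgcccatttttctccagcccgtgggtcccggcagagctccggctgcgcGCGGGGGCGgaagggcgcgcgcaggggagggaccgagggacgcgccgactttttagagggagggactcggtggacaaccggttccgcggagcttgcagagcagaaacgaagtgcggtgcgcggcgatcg
Nnat: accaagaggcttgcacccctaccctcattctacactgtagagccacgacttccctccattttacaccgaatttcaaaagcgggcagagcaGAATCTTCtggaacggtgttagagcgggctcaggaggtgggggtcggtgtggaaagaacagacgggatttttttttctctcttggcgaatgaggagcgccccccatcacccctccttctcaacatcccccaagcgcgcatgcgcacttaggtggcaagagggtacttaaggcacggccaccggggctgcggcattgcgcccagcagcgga
They lie at chr5:149636287-149636586 on the minus strand, chr5:32136222-32136521 on the plus strand and chr2:157559828-157560127 on the plus strand. The capitals in *Hsph1* and *Nnat* are a heat shock element, and those in *Fosl2* a heat shock element and, nearer the start, an EGR site. A match is a run of letters in this window and not a measured binding site.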

How the data were processed

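The deposited values are raw counts per gene and library. The authors made them from libraries of nuclear RNA (stranded total RNA kit, version 2 for hippocampus and version 1 for mPFC) sequenced from both ends. Trimmomatic trimmed the reads, HISAT2 placed them on GRCm38, Picard and SAMtools served to remove duplicates and to sort, and featureCounts counted whole gene bodies, introns included. Program versions and the strand setting of the counting are not given in the sources used here, so that reads of genes that overlap on opposite strands may be shared. The deposited γH2AX peak list holds intervals, called on merged replicates with MACS2 after Bowtie2, and was used for its gene names.

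Of 53749 gene IDs, 53682 were in GENCODE release M21, whose gene bodies gave FPKM. A gene entered a test when the mean FPKM of some group exceeded 0.2. The tests were edgeR's quasi-likelihood tests (edgeR 4.0.16 under R 4.3.3), two-sided, with TMM scaling and Benjamini-Hochberg adjustment at a threshold of 0.05. The hippocampal NeuN+ comparisons used 1 fit of 12 libraries, the interaction 1 fit of 23, because NeuN- naive replicates 3 and 4 held identical counts and were used once, and the mPFC 1 fit of 9. Errors are SE of the log2 fold change, and CPM values are counts scaled by TMM to library size. Total counts per library were 11836005 to 16163576 in naive and 12019994 to 14661631 in CFC30 hippocampal NeuN+ nuclei. The 95% intervals of summed counts are exact binomial and cover counting error only. Scripts were tested on simulated counts. Alternatives were DESeq2 1.42.0, its size factors, upper-quartile scaling, no filter, the filterByExpr rule, only naive and CFC30 libraries, a replicate block and leaving out each library.

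The rule for naming took 12 rises and 12 falls, the largest with libraries of the groups fully apart and a mean of 50 counts or more in the higher group. It added from each of 37 function lists the 4 members with the smallest p, and genes the paper names for these neurons. Called members of a list or comparison are named as a whole set or by examples, some members that are counted are not reported here by name, and other genes were chosen after their values were seen. The groups, lists and rules were chosen with earlier results of these data known, so the lists are not independent evidence. Promoter and microRNA sequences are RefSeq on GRCm38.p6.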

Additional observations from a re-analysis of the deposited data

Results flagged for a closer look

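Several values stood apart from their group or differed between the times or the sorted fractions. In 12 of 354 groups of 4 libraries 1 library lay far from the other 3, where chance gives about 1 group in 20. In CFC30 replicate 3 these were *Fos* at 1.36 CPM and *Egr1* at 6.3 CPM, both the highest of their group, and *Med12* at 26.6 and *Creb1* at 59.1 CPM. In CFC30 replicate 1 they were *Itpr1* at 533.8 and *Plk2* at 29.4 CPM, in CFC30 replicate 2 *Kcna4* at 27.2 CPM and in CFC30 replicate 4 *Calr* at 51.5 CPM. In naive replicate 2 they were *Tm6sf2* at 3.32, *C130071C03Rik* at 205.5 and *Ptbp2* at 128.5 CPM, and in naive replicate 4 *Atp6v0a1* at 290.7 CPM.

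The level at 30 minutes differed from that at 10 minutes by the test of the difference itself, on the log2 scale by -1.76 for *Fos*, -1.73 for *Npas4*, -1.49 for *Egr1*, -1.12 for *Junb*, -1.04 for *Arc*, -0.42 for *Errfi1* and -0.37 for *Kcnj4*. It was higher by 0.69 for *Pcsk1* and also 0.69 for *Homer1*, 0.5 for *Spred1*, 0.46 for *Dlx6os1*, 0.37 for *Hsph1*, 0.34 for *Spred2* and *Per2* alike and 0.22 for *Hspa4*.

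The response of NeuN+ nuclei differed from that of NeuN- nuclei, again by the test of the difference, by 1.53 for *Gm30122*, 1.22 for *Nnat*, 1.02 for *Trib2*, 0.9 for *Tiparp*, 0.83 for *Homer1*, 0.63 for *Spred1*, -0.85 for *Zfp46* and -1.11 for *Sgk1*.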

How the results depend on the processing

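Against naive, the counts of 580 and 483 genes ran from 353 to 660 and from 264 to 588 when 1 library was left out, lowest without CFC30 replicate 2, and from 460 to 789 and 414 to 629 under the other alternatives. Of 140 named genes called, 94 were called under all 15 alternatives, 1 more, *Oacyl*, in each of the 14 that tested it, and no called result changed direction. Against CFC10, 17 and 20 genes became 47 and 50 with no filter on level, 13 lower with the filterByExpr rule and 28 higher with DESeq2, and 7 to 60 and 10 to 49 when 1 library was left out. For NeuN+ minus NeuN-, 25 and 22 became 97 and 95 with no filter, 61 and 34 with DESeq2, and 9 to 31 and 5 to 23 when 1 library was left out. For mPFC the counts ran from 1277 to 1545 and 1052 to 1360 when 1 library was left out. The cause of these shifts was not tested. Low counts limit the precision for *Fos*, *Fosb* and *Junb*.

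The groups share replicate numbers, but these did not pair the libraries. Deviations from the group means of libraries with the same number correlated at -0.03 to 0.12 (4 pairs) and of other numbers at -0.23 to 0.18 (12 pairs). With the replicate number as a block, 615 genes were higher and 509 lower against naive, 23 and 21 against CFC10, 29 and 29 for NeuN+ minus NeuN- and 1734 and 1520 in mPFC. Of the named genes 171 stayed on the same side of the threshold, 3 passed it newly and 3, *Cox5a*, *Ndufb2* and *Eprs*, no longer passed it.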

Other observations

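Some called genes of low count, chosen after their values were seen, had larger fold changes than most named genes. Each of those given here passed the filter on level only in the group where it was high. A large ratio therefore follows in part from the filter. *Gm37306* had 40, 40, 40 and 28 counts in the naive and 7, 12, 10 and 14 in the CFC30 libraries, and the ratio of the sums, 3.58 with a 95% counting interval of 2.53 to 5.15, was towards naive. *Tex35* had 22, 36, 21 and 24 against 10, 5, 13 and 15 counts, a ratio of 2.49 towards naive with an interval of 1.73 to 3.64, and *Fam43a* 6, 10, 8 and 11 against 3, 1, 4 and 3, a ratio of 3.31 with an interval of 1.64 to 7.22. *Ifi30*, a lysosomal thiol reductase that interferon induces, had 4, 6, 4 and 4 counts in naive and 15, 10, 11 and 9 in CFC30, a ratio of 2.4 towards CFC30 with an interval of 1.36 to 4.41. The cadherin list, with 4 of 22 higher, 18.2% against 4.67% of all genes, had 1 called higher without naive replicate 2. Tubulin and microtubule genes had 4 of 40 higher, 10%, *Map1b*, *Map2*, *Map6* and *Kif3a*.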
